A study of Arabidopsis thaliana with 18 samples.

Results

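The comparison described here asks for which transcripts the effect of salicylic acid differed between an early time and later ones. The plants were of the Arabidopsis thaliana natural accession Kin-0. For each probe set the SA effect, meaning SA minus silwet on the log2 scale, was taken at 4 h, and the mean of the SA effects at 28 h and 52 h was subtracted from it. All 18 arrays of the series' 18 enter this early minus late difference, each placed in its group by the treatment and time of its source label. Plants were treated with 0.30 mM salicylic acid (SA) in 0.02% silwet, a surfactant that makes a solution wet plant surfaces, and were set against plants given 0.02% silwet only. Either treatment was sampled at 4, 28 and 52 h, with 3 arrays labelled as biological replicates in each of the 6 groups, on Affymetrix ATH1 arrays hybridised with biotin-labelled RNA. The labels name no tissue or plant age and do not say what replicates of 1 number shared, so p-values measure the spread between these samples. Untreated Kin-0 plants were not analysed here, which leaves silwet alone as the background of every SA value.

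SA is a defence hormone that plants make after attack by pathogens that feed on living tissue. It acts through the NPR receptors, which work with TGA transcription factors on defence genes, and secreted defence proteins need a larger capacity for folding and transport in the endoplasmic reticulum. Enzymes that attach sugars, methyl groups or other groups to SA limit how long applied hormone remains active. SA is also known to act against growth and against other hormone pathways.

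The deposited values are linear MAS5 signals of 22810 probe sets, with array medians between 26.7 and 35.6. Of these, 15212 probe sets were tested, namely those above the 40th percentile of their own array on at least 3 arrays. A value at or below that percentile is called dim below. RCA, the Rubisco activase of green tissue, gave between 1343 and 4055 units on all 18 arrays, and it was the 1 tested member of 12 leaf genes. The root gene PYK10 was the 1 tested member of 8 root genes and gave between 35.5 and 284 units. No vascular, flower or seed marker had a named probe set that was tested, so other organs could not be checked further. In these bulk samples fewer cells of a type and less RNA per cell cannot be told apart. SA 4 h replicate 2 stood apart in RNA quality. Its mean log2 ratio of 3' over 5' control probe sets was 2.09, against 0.80 to 1.63 on the other arrays. Silwet 52 h replicate 1 differed from the arrays of its own replicate number. Its ratio was 0.85, against 1.298 to 1.63 on the other replicate 1 arrays. RCA gave 3502 units on it, against 1343 to 2192.5 on those arrays. This array enters every SA effect at 52 h and the replicate block, and the cause of its departure was not tested.

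In the early minus late difference 366 probe sets passed an adjusted p of 0.05 in limma with the replicate number as a block, which is 2.41% of those tested. Of these, 175 (1.15%) had a higher SA effect at 4 h than later and 191 (1.26%) a lower one. Of the 366, 282 had a difference of at least 1 on the log2 scale. The median over all tested probe sets was -0.06. When each array was centred on its median this median moved by 0.10, and 64.4% of 281 calls were higher, against 47.8% of the 366. Among the 366, 196 carry 1 gene in the annotation used, 9 carry several and 161 are unnamed here.

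How many probe sets passed depended on the block and on single arrays. Without the block 23 passed, 19 of them higher. Removing 1 array left 138 calls without SA 4 h replicate 2, 158 without SA 4 h replicate 3, 116 without silwet 4 h replicate 1 and 111 without silwet 4 h replicate 2. Among later arrays, removal left 175 without SA 28 h replicate 1 and 168 without SA 28 h replicate 2. It left 184 without SA 52 h replicate 2 and 206 without silwet 52 h replicate 2. Without silwet 52 h replicate 1 the count rose to 514. Without all 6 arrays of replicate number 2, limma called 0 probe sets (1143 at an unadjusted p under 0.05), and without replicate number 3 it called 72. With the 3' over 5' ratio of each array as a further covariate 329 passed, 265 of them among the 366. All 366 kept their sign in each of these fits, and the median of the signed difference stayed between 1.14 and 1.35. In this balanced design a difference is the same with and without the block. Leaving out a replicate number could not turn a sign, because each call had all 3 replicate-number values on 1 side of 0. The kept signs were thus partly fixed in advance.

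The called probe sets had an SA effect at 4 h and a median effect near 0 at both later times. For the 175 higher ones the median SA effect was 1.14 at 4 h, -0.11 at 28 h and -0.12 at 52 h on the log2 scale. For the 191 lower ones it was -1.06 at 4 h, 0.12 at 28 h and 0.11 at 52 h. These values are those the calls were made on and describe them only. Of the 366, 363 also passed in the SA comparison at 4 h taken alone, where 1011 probe sets (6.65%) passed in the same fit, 455 higher (2.99%) and 556 lower (3.66%).

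**Figure D1:**
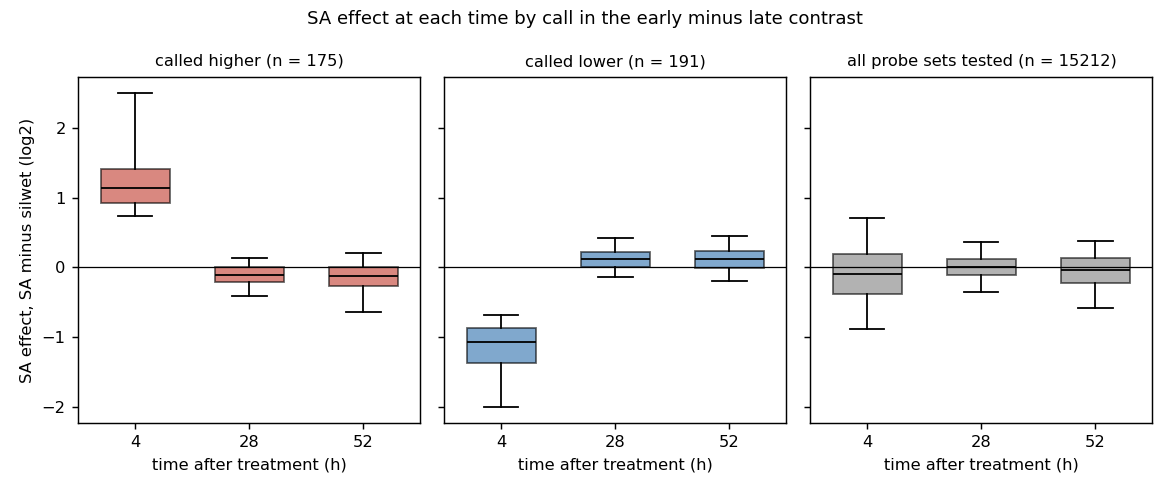
SA effect (log2, SA minus silwet) on the y axis at 4, 28 and 52 h for the 175 probe sets called higher, the 191 called lower and all 15212 tested. Boxes span the quartiles with the median as a line, and whiskers run from the 5th to the 95th percentile; the called sets have medians of 1.14 and -1.06 at 4 h and medians within 0.12 of 0 later.

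The 1011 probe sets called at 4 h alone were chosen without the later arrays, so their later SA effects were not used in choosing them, although all arrays share 1 estimate of the spread and of the replicate effects. Turned to the direction seen at 4 h, their median effect was 0.95 at 4 h, -0.05 at 28 h and 0.00 at 52 h. At 28 h 379 of them (37.5%) had the sign they had at 4 h, and at 52 h 514 (50.8%) did. Over all 15212 tested, the SA effect was above 0 for 8037 at 28 h and for 6856 at 52 h. An effect of at least 1 in the 4 h direction was seen for 451 at 4 h, for 1 at 28 h and for 2 at 52 h. None of the 1011 had a mean later effect of 50% or more of its effect at 4 h. Choosing on the 4 h effect favours large values there, so this comparison and the 451 only describe the chosen probe sets. The mean SA effect over 28 h and 52 h, tested by itself in limma, had 0 calls (391 at an unadjusted p under 0.05, where 761 would be expected if no probe set differed). This unadjusted count depended on the fit: it was 108 without the block and 696 with a block for each replicate number at each time. Leaving out 1 array gave 181 to 981. The 0 calls and the low count thus do not show that no late effect remained. The SA effects at 28 h and 52 h were not shown to differ from each other either, with 0 calls and 265 at an unadjusted p under 0.05.

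Against each later time alone fewer probe sets passed. The SA effect at 4 h differed from that at 28 h for 119 probe sets (0.782%), 58 higher (0.381%) and 61 lower (0.401%). It differed from that at 52 h for 126 (0.828%), 67 higher (0.44%) and 59 lower (0.388%). Both comparisons use the same 6 arrays of 4 h.

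Genes of SA handling and SA response were among those called higher. UGT76B1 (AT3G11340), a glucosyltransferase that conjugates SA and related defence signals, gave 1598, 2378 and 2116 units on the 3 SA arrays at 4 h, against 91.8, 205 and 322 with silwet. At 28 h it gave 48.1, 85.1 and 65.9 units with SA, against 38.2, 11.8 and 201 with silwet. By 52 h its signals were 10.1, 12.9 and 17.3 with SA, against 8.07, 8.21 and 29.7 with silwet. Its 4 h groups stood clear of each other and its later groups overlapped, and all 3 SA arrays of 52 h were dim. The early minus late difference was 3.16 ± 0.71 (SE), with an adjusted p of 0.031 in limma, and it was 3.43 with dim signals raised to the 40th percentile of their array. The call was lost in 8 of 18 fits that left out 1 array (highest adjusted p 0.115) and without the block (0.247), and it was at an adjusted p of 0.0531 with the ratio covariate.

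SARD4 (AT5G52810), a reductase in the synthesis of pipecolic acid, a signal of systemic resistance, gave 523, 449 and 382 units with SA at 4 h, against 132, 167 and 173 with silwet. Its signals at 28 h were 126, 106 and 114 with SA, against 205, 124 and 96.9 with silwet. At 52 h they were 114, 62.3 and 94.6 with SA, against 108, 89.9 and 81.6 with silwet. SA raised it 2.86-fold at 4 h and the groups overlapped afterwards. The difference was 1.67 ± 0.28 (adjusted p = 0.00763), it passed whichever single array was left out, and its adjusted p was 0.0692 without the block.

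GRX480 (AT1G28480), a glutaredoxin that binds TGA factors, had a difference of 1.41 ± 0.35 (adjusted p = 0.0459). This call was lost in 15 of the 18 fits without 1 array, was at 0.0505 with a block for each replicate number at each time, and was at 0.337 without a block. Of the other tested SA response genes, the transcription factor gene WRKY53 had 1.99 ± 0.56 (adjusted p = 0.0741) and WRKY6 had -0.14 ± 0.42, neither called. WRKY53 was also higher with silwet at 4 h than in the later groups, by 1.91, and SA at 4 h stood 3.61 above them. SAG101, a partner of the immune regulator EDS1, had 0.45 ± 0.31 and was not called. BSMT1, which methylates SA and benzoic acid, had a difference of -2.52 with an SE of 1.05 and values by replicate number of -4.59, -2.88 and -0.10, and was not called. The list of SA response genes thus had 1 of 3 tested members called, SA synthesis and immune regulators 1 of 2, and SA turnover enzymes 1 of 2, all higher, where 1.15% of all tested probe sets were called higher. With 18, 14 and 6 genes on these lists, most members have no named probe set here.

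A named gene with a difference of 4.23 was AT3G28510, a P-loop ATPase of the AAA family. It gave 141, 191 and 266 units with SA at 4 h, against 14.2, 11.98 and 25.8 with silwet, 2 of which were dim. Every SA array of 52 h was dim, with 1.44, 3.88 and 12.5 units, so this size leans on values near background. With all signals raised to at least the 40th percentile of their array the difference was 3.30, below the 3.43 of UGT76B1 treated in the same way. It passed without any single array and was at an adjusted p of 0.0765 without the block.

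AT5G03350, a legume lectin-like protein, was bright on all 18 arrays. At 4 h it gave 2167, 3102 and 2307 units with SA, against 388, 214 and 294 with silwet. At 28 h the values were 141, 110 and 322 with SA, against 333, 202 and 138 with silwet. At 52 h they were 216, 97.5 and 208 with SA, against 201, 160 and 122 with silwet. An 8.60-fold rise at 4 h was thus followed by overlapping groups. Its difference of 3.23 ± 0.46 (adjusted p = 0.0029) held without any single array and without the block (adjusted p = 0.0215).

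F6'H1 (AT3G13610), the feruloyl-CoA hydroxylase that leads to the coumarin scopoletin, gave 393, 851 and 564 units with SA at 4 h, against 62.9, 81.2 and 141 with silwet. Its SA effect was 2.68 at 4 h, 0.19 at 28 h and 0.30 at 52 h, and the difference was 2.43 ± 0.49 (adjusted p = 0.0181). This call was lost in 3 of 18 fits without 1 array and without the block (adjusted p = 0.121). F6'H1 was the 1 tested gene of 10 on the list of indole and coumarin defence compounds. GH3.3 (AT2G23170), which conjugates auxin to amino acids, gave 155, 782 and 817 units with SA at 4 h, against 45.8, 168 and 289 with silwet. The 4 h groups of GH3.3 overlapped, because both replicate 1 arrays were low, and its difference of 2.02 ± 0.43 (adjusted p = 0.023) compares arrays within replicate numbers. Without the block its adjusted p was 0.64. The auxin gene GH3.5, of the same family, had 0.50 ± 0.32 and was not called.

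The other named genes among the 12 with the largest positive difference had values between 2.11 and 2.68. They include AT4G22530, a methyltransferase-like protein (2.31), AT4G32870, of the polyketide cyclase and lipid transport family (2.26), AT3G62780, a C2 domain protein (2.22), and AT5G44570 (2.36), AT1G15790 (2.24) and AT3G29240 (2.11). AT4G32870 gave 551, 520 and 412 units with SA at 4 h, against 94.2, 98.6 and 115 with silwet. Together with AT1G15790 and AT3G29240 it also passed without the block. AT1G08050, a zinc finger protein, had 2.68, but only 1.58 with dim signals raised to the 40th percentile. The call was lost in 7 of 18 fits without 1 array for AT1G08050, in 5 for AT4G22530 and in 2 for AT3G62780, and without the block their adjusted p values were 0.73, 0.147 and 0.118. The SA effect of AT1G08050 at 4 h did not pass by itself (adjusted p = 0.051), and its SA effects of -0.67 at 28 h and -1.28 at 52 h add to the difference. The 2 largest unnamed increases were 245035_at (3.89 ± 0.39), with 3043, 3530 and 2879 units with SA at 4 h, against 198, 150 and 343 with silwet, and 249890_at (3.73 ± 0.45).

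**Figure D2:**
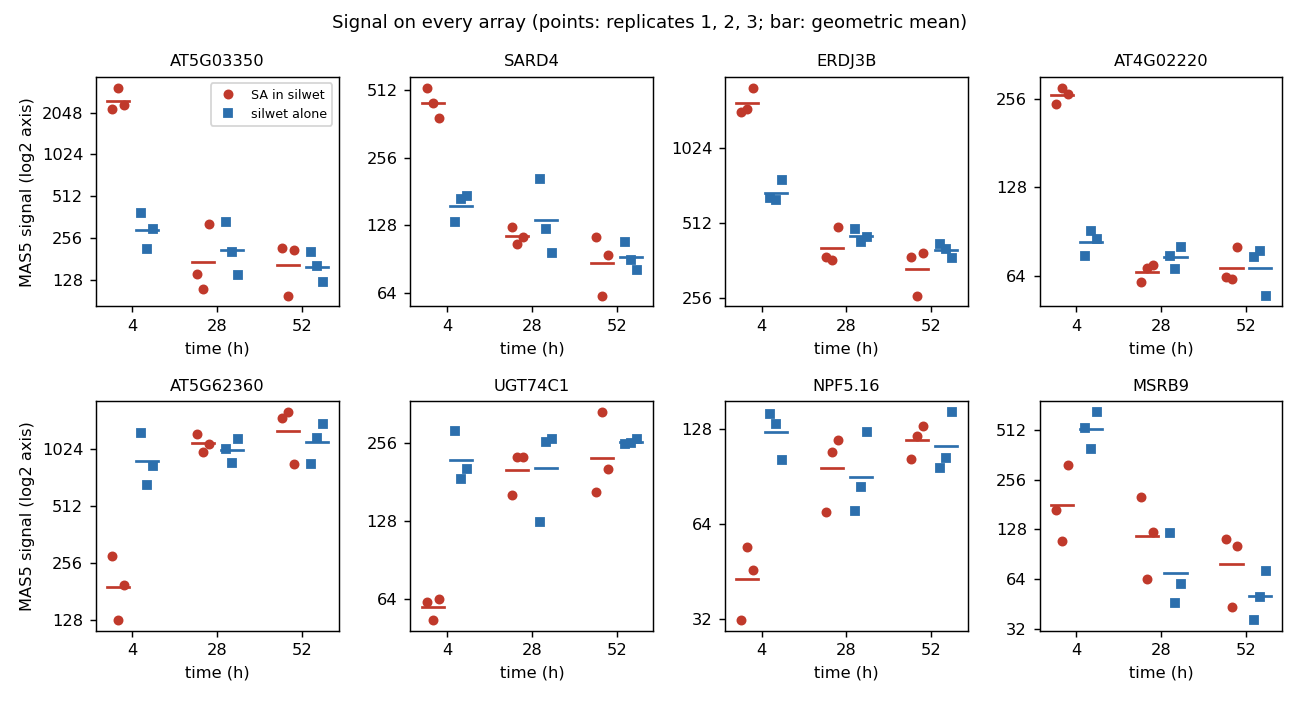
MAS5 signal (log2 axis) on every array at 4, 28 and 52 h for 4 genes called higher (top) and 4 called lower (bottom), with SA in silwet as red circles left of silwet alone as blue squares, replicates 1 to 3 from left to right and the geometric mean as a bar. The genes were chosen among the calls, so the separation of SA and silwet at 4 h only describes them. MSRB9 differs from the others in that silwet at 4 h is the group farthest from the later ones.

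The smallest adjusted p of a named gene was that of AT3G44190. This gene, a pyridine nucleotide-disulphide oxidoreductase family protein, gave 623, 563 and 504 units with SA at 4 h, against 231, 215 and 211 with silwet. Its 12 later arrays lay between 159 and 219. The difference was 1.51 ± 0.17 (adjusted p = 0.000772), and it passed without the block (adjusted p = 0.00429). AT4G02220, a zinc finger protein, gave 246, 280 and 265 units with SA at 4 h, against 75.0, 91.0 and 85.4 with silwet, and between 54.6 and 80.5 on the 12 later arrays. Its difference of 1.73 ± 0.21 (adjusted p = 0.00109) also passed without the block. By replicate number the difference was between 1.298 and 1.79 for AT3G44190, and it was 1.97, 1.78 and 1.45 for AT4G02220. AT3G13672 also ranked among the 5 smallest adjusted p values (0.00109, lower), but it was dim on all 6 arrays of 4 h, so no size is given for it.

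On the list of protein folding in the endoplasmic reticulum (ER), 1 of 3 tested members was called higher, where 1.15% of all tested probe sets were. This was ERDJ3B (AT3G62600), a J-domain co-chaperone of the ER chaperone BiP that helps fold immune receptors. It gave 1425, 1474 and 1793 units with SA at 4 h, against 643, 630 and 762 with silwet. At 28 h it gave 371, 361 and 491 with SA, against 485, 427 and 450 with silwet, and at 52 h 374, 260 and 387 with SA, against 421, 401 and 371 with silwet. A 2.30-fold rise at 4 h was followed by overlapping groups. Its difference of 1.41 ± 0.19 (adjusted p = 0.00181) passed without any single array and without the block (adjusted p = 0.0215). The list holds 13 genes; of the other tested members, the calreticulin gene CRT1B had 0.87 ± 0.39 and BZIP60, a transcription factor of the unfolded protein response, had 0.30 ± 0.32, neither called. BZIP60 at 4 h stood above the later groups by 1.86 with SA and by 1.56 with silwet.

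Further ER and secretory genes, with SGT1A and GFAT beside them, were picked out after their values were seen, so they illustrate the calls and carry no weight of their own. AT3G60540, a beta subunit of the Sec61 protein channel, had a difference of 1.69 ± 0.31, AT1G29310, an alpha subunit of the same channel, 0.86 ± 0.22, and AT1G52600, a signal peptidase subunit, 0.83 ± 0.21. AT1G26690, a p24 protein of ER to Golgi transport, had 1.29 ± 0.19, and OS9, an ER lectin of protein quality control, had 0.90 ± 0.21. Outside the ER, SGT1A, a co-chaperone of immune receptors, had 1.64 ± 0.31, and GFAT, the first enzyme of amino sugar synthesis for glycosylation, had 1.52 ± 0.25. SA raised all 7 at 4 h, between 1.77-fold and 3.24-fold, and this 4 h effect is part of the difference they were called on. AT3G60540, AT1G26690 and GFAT passed without any single array, while OS9, AT1G29310 and AT1G52600 lost the call in 15, 16 and 14 of 18 such fits and SGT1A in 1. Of the 7, GFAT alone passed without the block (adjusted p = 0.0413).

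The genes with a lower SA effect at 4 h than later included several of the cell wall and of membrane transport. AT5G62360, a pectin methylesterase inhibitor family protein, gave 279, 128 and 197 units with SA at 4 h, against 1240, 656 and 831 with silwet. At 28 h the signals were 1219, 983 and 1086 with SA, against 1019, 859 and 1147 with silwet. At 52 h they were 1485, 1596 and 846 with SA, against 851, 1158 and 1386 with silwet. SA lowered it 4.58-fold at 4 h and no later group stood apart. The difference was -2.35 ± 0.34 (adjusted p = 0.00324), and it held without any single array and without the block (adjusted p = 0.0215).

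AT1G60590, a pectin lyase-like protein, gave 18.0, 23.0 and 17.4 units with SA at 4 h, 1 of them dim, against 99.0, 75.3 and 62.6 with silwet, and its difference was -2.03 ± 0.38. NPF5.16 (AT1G22550), of the nitrate and peptide transporter family, gave 31.7, 54.0 and 45.8 units with SA at 4 h, against 143, 133 and 103 with silwet, and its difference was -1.62 ± 0.28. The neighbouring family member NPF5.15 (AT1G22570) had -1.41 ± 0.30. Leaving out 1 array lost the call in 4 of 18 fits for NPF5.15 (highest adjusted p 0.104) and in 1 for AT1G60590 (0.057), and in none for NPF5.16. Without the block their adjusted p values were 0.155, 0.0692 and 0.0786. These 4 genes are the called ones among 6 tested members of a list of wall and transport genes that had been drawn from earlier results of these arrays, so their direction is not independent evidence; over all tested probe sets 1.26% were called lower. The other 2, the expansin gene EXPA8 (-0.44 ± 0.33) and TBL36 (0.42 ± 0.28), were not called. EXPA8 at 4 h lay 2.15 below the later groups with SA and 2.01 below them with silwet.

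Sugar handling was represented by ATSPS4F (AT4G10120), a sucrose-phosphate synthase, with 17.5, 28.2 and 39.8 units with SA at 4 h, against 65.7, 172 and 176 with silwet. The 4 h groups did not overlap and the difference was -1.99 ± 0.46 (adjusted p = 0.0341), a call lost in 11 of 18 fits without 1 array. For ATSPS4F the adjusted p was 0.502 without the block and 0.0519 with the ratio covariate. The vacuolar sugar carrier gene TMT2, named after its values were seen, gave 26.3, 33.7 and 35.3 units with SA at 4 h, against 85.9, 102 and 88.6 with silwet, with a difference of -1.54 ± 0.33. Its call was lost in 6 of those 18 fits and without the block (adjusted p = 0.268).

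In the aliphatic glucosinolate pathway, which makes methionine-derived defence compounds, 2 of 3 tested members of 15 were called, both lower, where 1.26% of all tested probe sets were called lower. UGT74C1 (AT2G31790), a glucosyltransferase assigned to the last step of the core structure, gave 62.2, 52.7 and 63.5 units with SA at 4 h, against 285, 187 and 203 with silwet. At 28 h it gave 161, 227 and 227 with SA, against 127, 259 and 266 with silwet, and at 52 h 166, 339 and 204 with SA, against 256, 256 and 265 with silwet. The 4 h groups stood clear of each other and the difference was -1.79 ± 0.34 (adjusted p = 0.0124), lost in 2 of 18 fits without 1 array (highest adjusted p 0.0531) and without the block (0.0765). BCAT4, the aminotransferase of methionine chain elongation, gave 1284, 886 and 991 units with SA at 4 h, against 1994, 1353 and 1348 with silwet. Its difference of -0.62 ± 0.14 (adjusted p = 0.0276) was the smallest in size of all 366, it was lost in 6 of 18 fits without 1 array, and its adjusted p was 0.64 without the block. UGT74B1, which acts at the same step as UGT74C1, had -0.50 ± 0.30 and was not called.

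Among genes of abscisic acid, cold and dehydration 2 of 4 tested members were called, both lower, against 1.26% of all tested probe sets. COR15A, a chloroplast cold-protection protein, had -1.43 ± 0.32 (adjusted p = 0.0282) and the dehydrin gene COR47 had -0.93 ± 0.23 (adjusted p = 0.0433). The calls were lost in 8 of 18 fits without 1 array for COR15A and in 13 for COR47, and the 4 h arrays of COR15A overlapped. Without the block the adjusted p was 0.613 for COR15A and 0.488 for COR47. COR15B had -0.71 ± 0.29 and the dehydrin gene LTI30 0.14 ± 0.34, neither called.

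Further genes with large negative differences were AT1G52000, a jacalin-type lectin (-2.66 ± 0.46), AT1G68600, of the aluminium-activated malate transporter family (-1.94 ± 0.30), and AT1G74940, an FLZ zinc finger protein (-1.92 ± 0.31). These 3 passed whichever array was left out, but not without the block (adjusted p = 0.310, 0.0786 and 0.0513 in that order). AT1G78450 (-1.80), AT1G26390, a berberine bridge enzyme-like oxidase (-1.68), and AT1G20030, of the thaumatin family (-1.66), had 4 h arrays that overlapped between SA and silwet, and their calls were lost in 14, 7 and 2 of the 18 fits. AT2G43530, AT2G43535 and AT2G43550, defensin-like genes whose loci lie close together, had -1.04 ± 0.16, -1.08 ± 0.25 and -1.28 ± 0.31 and were named after their values were seen. AT2G43530 gave 959, 507 and 736 units with SA at 4 h, against 1769, 964 and 1149 with silwet. It passed without any single array but not without the block (adjusted p = 0.617), and the other 2 lost the call in 11 and 13 of 18 fits. The unnamed probe set 259878_at had -2.25 ± 0.33, with 299.8, 90.65 and 269 units with SA at 4 h, against 1341, 712 and 759 with silwet, whereas 247600_at passed but was dim on every SA array of 4 h and on 2 of the 3 silwet arrays. Without the block the adjusted p was 0.151 for 259878_at and 0.0792 for 247600_at.

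**Figure D3:**
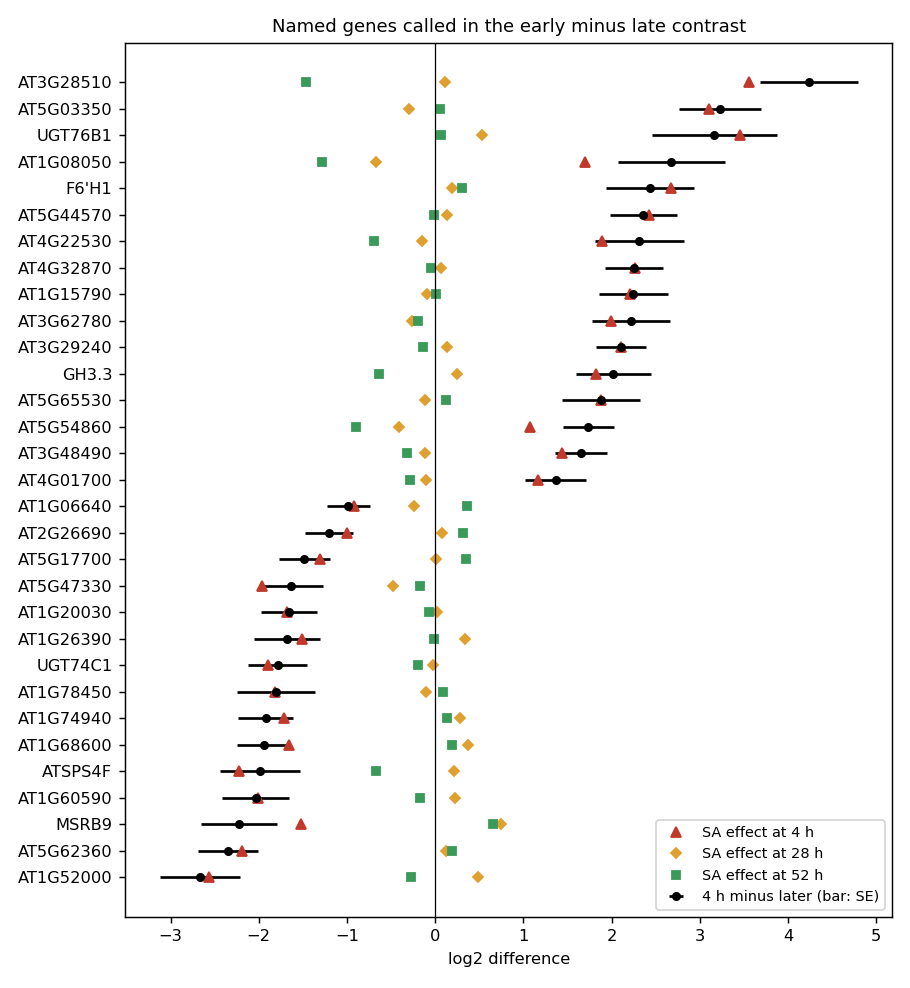
Early minus late difference (black point, bar SE) and the SA effect at 4 h (red triangle), 28 h (yellow diamond) and 52 h (green square), all log2, on the x axis for the named genes with the largest differences and those of the silwet and mixed classes on the y axis. The 4 h effects carry the sign of the difference for every gene plotted, while MSRB9 has positive SA effects at both later times and AT1G08050 and AT5G54860 have negative ones.

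An SA effect at 4 h can come from SA arrays that depart from the later groups or from silwet arrays that do. For each called probe set the mean of the 4 later groups was therefore subtracted from SA at 4 h and from silwet at 4 h. In 315 of the 366 (86.1%, against 43.3% of all tested) the departure of SA at 4 h was at least 2 times as large as that of silwet. In 18 (4.92%, against 14.3%) the departure of silwet was at least 2 times as large as that of SA, and in 33 neither held. The calls rest on the same SA effect at 4 h, so the shares are descriptive. When the larger of the 2 departures decided, 343 fell to SA and 23 to silwet, while 10725 of all 15212 tested fell to SA.

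Silwet at 4 h often departed in the same direction as SA, for higher and for lower calls. Of the 175 higher probe sets 150 (85.7%) also had silwet at 4 h above the later groups, against 47.8% of all tested. Of the 191 lower ones 60 (31.4%) had silwet above the later groups, so most had it below them, the direction of the median SA departure. The median departure was 1.64 for SA and 0.47 for silwet among the higher ones, and -1.23 for SA and -0.18 for silwet among the lower ones. GRX480 stood 2.86 above the later groups with SA and 1.43 with silwet, and AT4G01700, a chitinase family protein with an early minus late difference of 1.36 ± 0.34, stood 2.67 above with SA and 1.51 with silwet. The call for AT4G01700 was lost in 14 of 18 fits without 1 array.

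**Figure D4:**
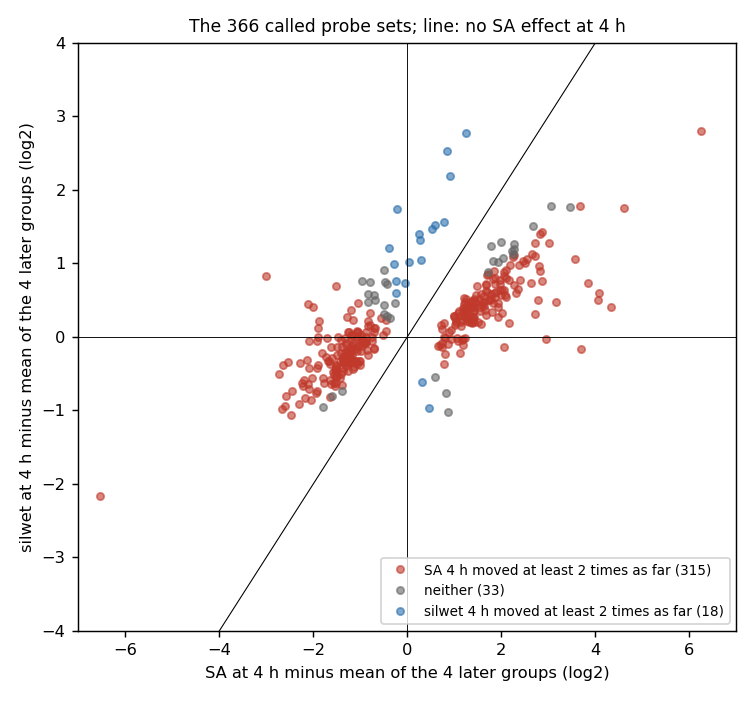
For the 366 called probe sets, SA at 4 h minus the mean of the 4 later groups (x axis, log2) against silwet at 4 h minus the same mean (y axis, log2), with a line where the SA effect at 4 h is 0. The 315 red points are those where SA departed at least 2 times as far, so by definition they lie farther from 0 on the x axis than on the y axis. Of the 18 blue points, where silwet departed at least 2 times as far, 16 lie at the upper left of the line, the side of a negative SA effect at 4 h.

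In 16 of the 18 silwet cases silwet at 4 h lay above the later groups and the probe set was called lower, and in 2 silwet lay below and it was called higher. Where silwet departs at least 2 times as far as SA, the SA effect at 4 h has the sign opposite to silwet's departure. The match of departure and call is thus largely fixed by the class, and the split of 16 and 2 only describes it. MSRB9 (AT4G21850), a methionine sulphoxide reductase that repairs oxidised proteins, gave 167, 109 and 313 units with SA at 4 h, against 527, 393 and 656 with silwet. At 28 h it gave 201, 63.7 and 124 with SA, against 122, 46.0 and 60.2 with silwet, and at 52 h 113, 43.7 and 102 with SA, against 36.1, 49.996 and 71.9 with silwet. Silwet at 4 h was thus 2.77 above the later groups and SA at 4 h was 1.24 above them. The difference was -2.22 ± 0.43 (adjusted p = 0.0143), with an SA effect of -1.53 at 4 h, 0.74 at 28 h and 0.65 at 52 h. Its call was lost in 2 of 18 fits without 1 array (highest adjusted p 0.0568) and without the block (0.202).

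MSRB5 (AT4G04830), of the same enzyme family and named after its values were seen, did not show this. It gave 146, 91.1 and 78.9 units with SA at 4 h, against 459, 179 and 196 with silwet, and silwet at 4 h lay 0.28 below the later groups while SA lay 1.60 below them. Near-identical family members can share probe signal, and the probe sequences were not used here. AT5G47330, an alpha/beta-hydrolase family protein (-1.64 ± 0.36), AT2G26690, the transporter NPF6.2 (-1.20 ± 0.27), and AT1G06640, a 2-oxoglutarate-dependent oxygenase family protein (-0.98 ± 0.24), had silwet at 4 h above the later groups by 1.73, 0.76 and 1.52. Their calls were lost in 7, 7 and 15 of the 18 fits. AT3G48490 was 1 of the 2 opposite cases: it gave 108, 63.7 and 69.8 units with SA at 4 h, against 44.8, 21.0 and 25.9 with silwet, which lay 0.96 below the later groups. Its difference of 1.65 ± 0.30 passed without any single array.

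Of the named called genes where neither group clearly led, AT5G54860, a membrane transporter of the major facilitator type, had the largest difference with no dim array, 1.73 ± 0.29. It gave 621, 398 and 620 units with SA at 4 h, against 215, 231 and 329 with silwet, and 64.8, 54.6 and 68.5 with SA at 52 h, against 121, 139 and 94.2 with silwet. The arrays did not overlap at 4 h or at 52 h, in opposite directions, and the mean later SA effect of -0.66 did not pass (adjusted p = 0.997 over all probe sets). This gene passed without any single array and without the block (adjusted p = 0.0295). AT5G17700, a MATE-type efflux protein, had -1.49 ± 0.29, with SA at 4 h 0.83 below the later groups and silwet 0.47 above them, and its call was lost in 3 of 18 fits without 1 array. AT5G65530, a receptor-like kinase, had 1.88, which was 0.89 with dim signals raised, since all 3 silwet arrays of 4 h were dim, and its call was lost in 13 of 18 fits without 1 array and without the block (adjusted p = 0.118).

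The remaining lists held few tested members and no other call. Of the mitochondrial stress genes, HSP23.5 had 0.83 ± 0.70 (0.32 with dim signals raised to the 40th percentile), NDB2 had 0.59 ± 0.22 and UPOX had 0.18 ± 0.38, none called, and MSRB9 was the 1 called of 4. HSP23.5 was dim on every later array but 1. The touch and rapid stress genes ZAT10 (-0.17 ± 0.59), WRKY22 (-0.74 ± 0.35, and -0.63 with dim signals raised) and CML38 (-1.08 ± 0.51) were not called. The jasmonate genes PDF1.2A (0.12 ± 1.08) and THI2.1 (-1.52 ± 0.54, and -0.85 with dim signals raised) were not called either, and PDF1.2A had values by replicate number of -1.57, 4.10 and -2.16. The detoxification genes UGT73B5 (0.16, and 0.12 with dim signals raised) and GSTU25 (-0.74, and -0.37 raised), the clock gene GI (-0.36), the auxin gene IAA29 (-0.05), and the guard cell genes GC1 (0.29) and FMA (-0.46) did not pass. RCA had -0.16 ± 0.26, PYK10 had -1.07 ± 0.50, and the 4 reference genes TIP41L, GAPC2, UBC21 and SAND lay between -0.16 and 0.30.

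**Figure D5:**
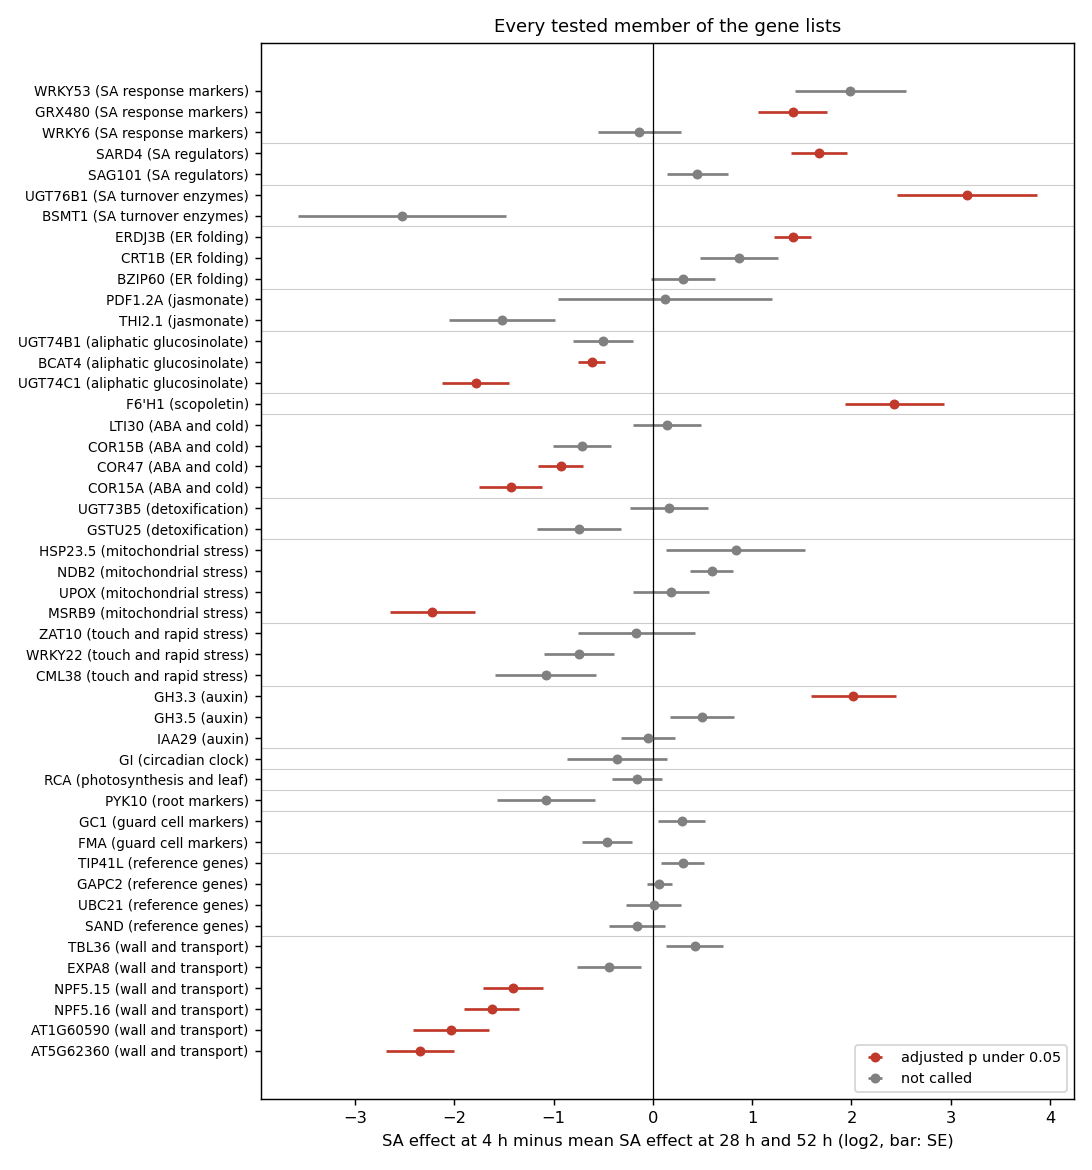
Early minus late difference (x axis, log2, bar SE) of every tested member of the gene lists on the y axis, grouped by list, with called genes in red. SARD4, UGT76B1, ERDJ3B, F6'H1, GRX480 and GH3.3 lie to the right and UGT74C1, BCAT4, COR15A, COR47, MSRB9 and 4 wall and transport genes to the left, and the 4 reference genes lie within 0.30 of 0.

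The threshold had no gap. Just inside it lay 265530_at (-1.01, adjusted p = 0.0492), AT1G29310 (0.86, 0.0494) and 254915_s_at (-1.16, 0.0495), and just outside it AT1G16670 (0.98, 0.05004), AT5G43910 (1.38, 0.05004) and 245686_at (1.03, 0.05004). By replicate number, the median difference was 1.43, 1.44 and 0.90 for replicate numbers 1, 2 and 3 among the higher probe sets, and -1.27, -1.33 and -0.95 among the lower ones, so replicate number 3 gave the smallest median in both directions. The calls were made on these same values, which therefore only describe them; all 3 lay on 1 side of 0 for every called probe set, as the selection favours, and for 43.5% of all tested. For AT5G03350 they were 3.05, 4.66 and 1.98, and for AT5G62360 -2.68, -2.69 and -1.68.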

How the data were processed

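The deposited data are linear intensity values, 1 column for each array in a single table. MAS5 is named in the submitters' processing notes, and its version and settings are not given in the sources used here. A 2% trimmed mean of 100.009 to 100.011 on each array shows that the authors had scaled the arrays. No 2 arrays were identical. Log2 was taken with no offset, 64 control probe sets were removed, and a probe set was tested (15212 were) if it exceeded the 40th percentile on 3 or more arrays.

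In limma 3.58.1 (R 4.3.3) 1 fit of all 18 arrays held the 6 group means and the replicate number of the titles as a block (10 residual degrees of freedom), with eBayes and an intensity trend. Benjamini-Hochberg adjustment covered all 15212 probe sets and a call means an adjusted p under 0.05. Errors are standard errors of the fit. Pairing by replicate number was checked through correlations of deviations from group means. All 9 same-time pairs were above 0.1 (lowest 0.18), as were 41 of 45 pairs over all groups. Silwet 52 h replicate 1 gave 0.26 to 0.38 with the other replicate 1 arrays, which gave 0.51 to 0.82 among themselves. Within replicate number 2, pairs with silwet 52 h gave 0.07 to 0.196 and pairs with SA 4 h gave 0.03 to 0.18. The fit was also run on simulated data with independent noise and the same replicate effects in all groups. The uneven pair correlations above were not simulated, so that run does not show how the fit holds for these arrays.

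Probe sets were named from a platform annotation listing 14016 of 22810 (13513 with 1 gene, 503 with several, named by none), with symbols updated through the TAIR10.1 gene table (13436 matched). The 20 gene lists hold 219 members, of which 51 could be matched to a probe set and 47 entered the test, each through its brightest probe set. The early minus late difference, the lists and the genes were chosen with earlier results of these data known. The text names the 12 higher and 12 lower calls with the largest difference and 1 gene that exceeded the 40th percentile on each of the 3 SA arrays or each of the 3 silwet arrays of 4 h, the 5 largest of the silwet and of the mixed class, the 5 smallest adjusted p values, list members, and the 2 largest unnamed probe sets each way. For genes dim on whole groups a difference with signals raised to the 40th percentile is given. Promoter sequences were not used here. Figures were drawn with matplotlib 3.10.9.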

Additional observations from a re-analysis of the deposited data

Results flagged for a closer look

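The results below drew attention because the SA effect at 4 h and the SA effect at a later time differed in a direct limma test of that difference. The test against 28 h had 119 calls and the test against 52 h had 126, and both share the 4 h arrays. Values are the SA effect at 4 h minus the later SA effect on the log2 scale, and the cause of these differences was not tested.

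Positive differences passed against both later times for 18 probe sets named in the text. Among these 18 they were largest for 245035_at (3.97 against 28 h and 3.81 against 52 h), 249890_at (3.78 and 3.67 in that order), AT3G28510 (3.45 and 5.02, the second against dim SA arrays) and AT5G03350 (3.40 and 3.05). AT1G15790 had 2.29 and 2.19, AT5G44570 had 2.29 and 2.43, AT4G32870 had 2.20 and 2.31, and AT3G29240 had 1.97 and 2.24. Smaller values were found for AT4G02220 at 1.82 and 1.65, AT3G60540 at 1.77 and 1.61, SARD4 at 1.75 and 1.60, SGT1A at 1.68 and 1.61, and GFAT at 1.64 and 1.40. AT3G48490 had 1.55 and 1.75, AT3G44190 had 1.54 and 1.48, AT5G54860 had 1.49 and 1.98, ERDJ3B had 1.37 and 1.45, and AT1G26690 had 1.18 and 1.39.

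Negative differences passed against both later times for AT5G62360 (-2.32 against 28 h and -2.38 against 52 h), 259878_at (-2.09 and -2.41), AT1G68600 (-2.04 and -1.85) and AT1G74940 (-1.997 and -1.85). NPF5.16 had -1.64 and -1.61, MSRB5 had -1.50 and -1.61, and AT2G43530 had -0.91 and -1.17.

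Some genes passed against 28 h and missed the threshold against 52 h, which does not show that the later times differ. These were AT1G52000 (-3.04), ATSPS4F (-2.43), MSRB9 (-2.27), AT1G60590 (-2.23), UGT74C1 (-1.87), TMT2 (-1.78) and AT1G20030 (-1.70). In the same way GH3.3 (2.46), AT5G17700 (-1.65), AT1G06640 (-1.28) and BCAT4 (-0.77) passed against 52 h and missed it against 28 h.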

How the results depend on the processing

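The replicate block, whole replicate numbers and single arrays all moved the counts. Without a replicate block the calls fell to 23 for the early minus late difference, 4 against 28 h, 4 against 52 h and 121 for SA at 4 h. With a replicate block nested in time they were 645, 275, 222 and 1745 in that order. The early minus late count was 217 without an intensity trend, 1004 with array weights, 119 with 28 h and 126 with 52 h as the only later time. Quantile normalization (276), the offset (403), testing all probe sets (259), a stricter filter at the 60th percentile (440) and a size of at least 1 (282) stayed within 1.5 times of 366. Leaving out 1 array gave 111 to 514 calls for the early minus late difference, 12 to 178 against 28 h, 23 to 176 against 52 h and 255 to 1478 for SA at 4 h. Leaving out all arrays of replicate number 1, 2 or 3 gave 286, 0 and 72 for the early minus late difference, 20, 0 and 6 against 28 h, 98, 0 and 18 against 52 h, and 1228, 10 and 121 for SA at 4 h. Single arrays that moved the count against 28 h by over 1.5 times were SA 4 h replicates 2 (36) and 3 (55), silwet 4 h replicates 1 (17) and 2 (29), SA 28 h replicates 1 to 3 (12, 18 and 36), silwet 28 h replicates 1 (26) and 2 (62) and SA 52 h replicate 2 (71). Those for 52 h were SA 4 h replicates 2 (32) and 3 (55), silwet 4 h replicates 1 to 3 (33, 23 and 74), SA 28 h replicates 1 to 3 (67, 68 and 76), SA 52 h replicates 1 (37) and 2 (31) and silwet 52 h replicates 1 (80) and 2 (28). Those for SA at 4 h were SA 4 h replicates 2 (361) and 3 (483) and silwet 4 h replicates 1 (255) and 2 (371). The cause of these shifts was not tested, beyond the smaller number of samples when arrays are left out. Of 59 named called probe sets 46 lost the call without the block, 59 without replicate number 2, 28 without SA 4 h replicate 2 and 11 with the 3' over 5' covariate, which was added after seeing the data; 27 passed whichever of the 18 arrays was left out and 0 changed sign in any fit. The mean later SA effect and the difference between 28 h and 52 h had 0 calls in every alternative run. With 3 arrays per group and dim signals near background, smaller differences may have been missed.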
